A study of Drosophila melanogaster with 16 samples.

Results

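Long non-coding RNA (lncRNA) genes of *Drosophila* were taken as the genes of the Ensembl annotation of BDGP6 whose symbol begins with lncRNA, and 1947 of the 24254 annotated features were such genes. Of these, 1944 lie on the chromosome arms that hold peaks, and they were described among the 23973 features of these arms. Each was placed by its distance to the nearest protein-coding gene. The gene bodies of 570 (29.3%) overlapped a protein-coding gene, 499 (25.7%) lay beside one at a distance of at most 1 kb, and 875 (45%) stood alone, with no protein-coding gene within 1 kb. The members were short, with a median length of 662.5 bp against 2166 bp for protein-coding genes, and 1282 (65.9%) had a single exon.

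The peaks come from Targeted DamID (TaDa) in wing imaginal discs of female mid-third instar larvae, the epithelial sacs that form the adult wing. TaDa fuses a protein to Dam, the bacterial enzyme that methylates adenine in GATC, and sequences the fragments marked where the protein sits. There were 3 samples each with Psi-Dam, with Dam fused to RpII18 (called RNA Pol here, since this subunit is common to the RNA polymerases) and with Myc-Dam, and 7 samples with Dam alone. In each of the 4 groups the *UAS* transgene was driven by *sd*-GAL4, which acts in the wing pouch, and held off by tsGAL80, a temperature-sensitive GAL80, until the last day. Eggs were collected for up to 4 h at 25°C, and larvae were kept at 18°C over 7 days and then at 29°C for 24 h. Dam-only sample 1 served as control both for samples of Psi and for 1 sample of RNA Pol, so these lists are not independent.

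The authors averaged the log2 ratio of fusion to Dam alone over the 3 samples of each fusion before calling peaks at an FDR of 1%. Each list is therefore 1 call on an average, with no replicate spread and no SD, and no test between samples was possible from it. The counts below describe these lists, and the read depth behind them is unknown. The lists hold 1710 Psi, 1568 RNA Pol and 1951 Myc peaks, and every peak runs from one GATC site to another. A score from the authors' peak caller ranks peaks within its own list and was not compared between lists. A gene was taken as near a peak when a peak overlapped it or lay within 1 kb. The start site of a gene is its outermost annotated 5′ end, and the promoter active in the disc may differ from it.

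A lncRNA gene makes a transcript without a long open reading frame, and such transcripts can act in the nucleus, can be the precursor of small RNAs, or can have no known function. Some of these genes host microRNAs, which are cut from the primary transcript and pair with target mRNAs through the seed, the bases near their 5′ end. Psi is the fly orthologue of the FUBP family of single-stranded nucleic acid binding proteins and acts in transcription and splicing. Myc is a bHLH transcription factor that drives growth and recognises the E-box CACGTG.

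The microRNA hosts were the members near peaks whose products are best known, so the mature sequences of those that the results turn on are shown here, with the seed (bases 2 to 8) in capitals. They were read from the RefSeq annotation of the same genome build. The first is bantam, which promotes tissue growth and blocks cell death, from the host CR43334. The next is *mir-9a*, which limits sensory organ formation in the wing disc, from CR45916. Both *mir-279* and *mir-996* come from CR31044, and *mir-282*, *mir-bft* and *mir-275* come from CR43626, CR43314 and CR43857.
mir-ban (3p): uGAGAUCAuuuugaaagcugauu
mir-9a (5p): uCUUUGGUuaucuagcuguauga
mir-279 (3p): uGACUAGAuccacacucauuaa
mir-996 (3p): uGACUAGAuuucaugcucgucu
mir-282 (5p): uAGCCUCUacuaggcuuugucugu
mir-bft (5p): aAUGGCACuggaagaauucacggg
mir-275 (3p): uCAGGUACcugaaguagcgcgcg
The seeds of *mir-279* and *mir-996* were identical, and the other 5 each had a seed of their own.

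Promoter sequences, from 250 bases before to 50 after the annotated start site, are shown for 4 lncRNA genes whose start site lay in a peak of at least 2 lists. Capitals mark GAGAG, the core bound by GAGA factor, or TATAAA, the TATA box, on either strand. CR43314 is on chromosome 2L, CR31044 and CR43644 are on 3R and CR45248 is on 3L, and the sequences follow the direction of transcription.
CR43314: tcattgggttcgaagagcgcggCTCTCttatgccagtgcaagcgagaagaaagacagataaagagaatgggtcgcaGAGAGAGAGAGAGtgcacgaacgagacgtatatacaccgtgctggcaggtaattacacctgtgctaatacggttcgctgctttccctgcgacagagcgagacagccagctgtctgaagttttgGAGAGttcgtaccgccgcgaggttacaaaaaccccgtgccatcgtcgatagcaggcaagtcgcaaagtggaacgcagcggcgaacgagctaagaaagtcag
CR31044: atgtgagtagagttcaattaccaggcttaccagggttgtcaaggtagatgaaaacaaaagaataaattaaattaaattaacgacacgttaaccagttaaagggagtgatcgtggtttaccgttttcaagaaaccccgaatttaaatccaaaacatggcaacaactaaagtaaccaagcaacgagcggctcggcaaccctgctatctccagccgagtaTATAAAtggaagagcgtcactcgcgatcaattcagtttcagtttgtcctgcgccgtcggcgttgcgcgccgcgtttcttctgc
CR43644: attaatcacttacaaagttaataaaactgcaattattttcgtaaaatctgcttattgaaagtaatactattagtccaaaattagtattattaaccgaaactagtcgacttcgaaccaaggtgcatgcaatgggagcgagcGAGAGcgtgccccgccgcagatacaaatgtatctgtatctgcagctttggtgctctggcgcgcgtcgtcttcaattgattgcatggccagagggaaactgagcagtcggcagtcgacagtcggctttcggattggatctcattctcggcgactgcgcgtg
CR45248: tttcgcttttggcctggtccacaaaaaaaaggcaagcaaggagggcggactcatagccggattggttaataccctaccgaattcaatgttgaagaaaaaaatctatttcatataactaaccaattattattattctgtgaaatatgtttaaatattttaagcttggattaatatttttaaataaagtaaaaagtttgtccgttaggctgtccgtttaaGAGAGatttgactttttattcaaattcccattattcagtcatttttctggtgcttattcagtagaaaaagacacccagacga
In CR43314 a run of overlapping GAGAG matches began 174 bp before the start site. In CR31044 the only TATAAA began 33 bp before it. CR43644 and CR45248 had 1 GAGAG each, beginning 110 and 32 bp before the start site.

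Near a Psi peak lay 208 lncRNA genes (10.7%), against 6.78% of all annotated features and 7.92% of protein-coding genes. For RNA Pol the count was 187 (9.62%), against 10.9% of all features and 13.6% of protein-coding genes. For Myc it was 209 (10.8%), against 14.6% of all features and 19.2% of protein-coding genes. The share of lncRNA genes was thus above both backgrounds in the Psi list and below both in the RNA Pol and Myc lists. The annotation includes transposable elements and pseudogenes, and without them the background was 8.38% for Psi, 13.3% for RNA Pol and 17.6% for Myc. Peaks overlapped the gene itself at 148 (7.61%), 136 (7%) and 152 (7.82%) lncRNA genes in the Psi, RNA Pol and Myc lists. The same shares of all features were 4.96%, 8.36% and 10.8%.

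The position of the lncRNA gene went with its share. Of the 570 that overlap a protein-coding gene, 78 (13.7%) were near a Psi peak, 74 (13%) near an RNA Pol peak and 75 (13.2%) near a Myc peak. Of the 499 beside one, the counts were 55 (11%), 57 (11.4%) and 66 (13.2%). Of the 875 that stand alone, they were 75 (8.57%), 56 (6.4%) and 68 (7.77%). Where only peaks over 1 kb from any protein-coding gene counted, 65, 43 and 60 of these were left. The genes that stand alone had the lowest share in each list. Where a peak lies within 1 kb of a lncRNA gene and of a protein-coding gene, it counts for both and cannot be given to one of them.

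**Figure D1:**
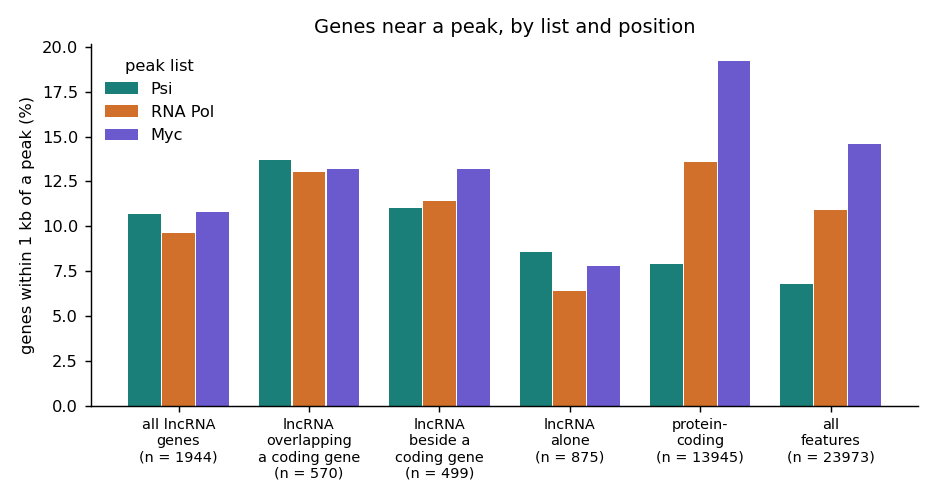
Share of genes within 1 kb of a peak (y axis, percent) for the lncRNA genes, by position against protein-coding genes, and for protein-coding genes and all annotated features, with bars coloured by peak list. Bars for lncRNA genes that stand alone are at 8.57% (Psi), 6.4% (RNA Pol) and 7.77% (Myc), and the Myc bar of protein-coding genes is the highest at 19.2%.

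Because lncRNA genes are short, they were also set beside protein-coding genes of the same length. For RNA Pol the share of all lncRNA genes was above that of protein-coding genes in each of the 5 length classes, from 6.63% against 4.16% under 500 bp to 27.9% against 27.6% at 5 kb and over. This did not hold for those that stand alone. Their RNA Pol shares were 4.09% under 500 bp, 4.76% against 6.31% at 500 bp to 1 kb and 8.47% against 11.3% at 2 to 5 kb, with 27.6% in both classes at 5 kb and over, and at 1 to 2 kb they were above, at 10% against 8.59%. For Psi the share of all lncRNA genes was above in each class, with 10.2% against 3.2% at 500 bp to 1 kb, 13.8% against 3.33% at 1 to 2 kb and 23.3% against 20.6% at 5 kb and over. The lncRNA genes that stand alone were above protein-coding genes for Psi up to 5 kb, with 8.2% against 3.2% at 500 bp to 1 kb, and below at 5 kb and over, with 13.8% against 20.6%. For Myc the shares of all lncRNA genes lay closer to those of protein-coding genes, with 14.4% against 14.9% at 1 to 2 kb and 19.1% against 18.9% at 2 to 5 kb. At 500 bp to 1 kb the Myc share of lncRNA genes was the lower, at 8.05% against 10.4%. Those that stand alone were below protein-coding genes for Myc in each length class, from 5.95% against 6.13% under 500 bp to 11.9% against 18.9% at 2 to 5 kb and 27.6% against 31.5% at 5 kb and over. Among all lncRNA genes and among protein-coding genes the share rose with length in each list, and 86 lncRNA genes, of which 29 stand alone, were 5 kb or longer.

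**Figure D2:**
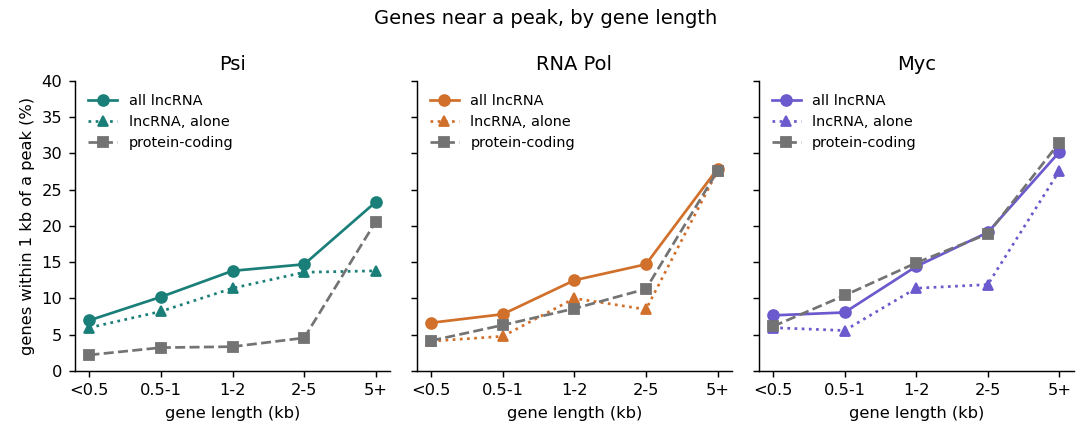
Share of genes within 1 kb of a peak (y axis, percent) by gene length (x axis, kb) for all lncRNA genes (circles, solid), those that stand alone (triangles, dotted) and protein-coding genes (squares, dashed), in 1 panel per peak list. The solid line lies above the dashed one throughout for Psi and RNA Pol, but for RNA Pol the dotted line is above it at 1 to 2 kb (10% against 8.59%) and below it at 2 to 5 kb (8.47% against 11.3%), and for Myc the dotted line is below it in each class.

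TaDa resolves position only to GATC fragments. The fragment that holds the start site had a median length of 860 bp at lncRNA genes and 655 bp at protein-coding genes, and 521 (26.8%) of the lncRNA genes contain no GATC site. Their part in the shares was not tested.

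The median distance to the nearest peak was 38.8 kb for Psi, 33.5 kb for RNA Pol and 26.3 kb for Myc, and 845 (43.5%), 759 (39%) and 595 (30.6%) lay over 50 kb away. Between 1 and 5 kb lay a further 156, 157 and 195. Such distances were not computed for other features, so no background stands beside them. Just inside the limit of 1 kb were CR44758, 994 bp from a Psi peak of score 1.65, CR44529, 991 bp from an RNA Pol peak of 1.6, and CR44748, 993 bp from a Myc peak of 1.6. Just outside it were CR45637, 1054 bp from a Psi peak of 1.63, CR32027, 1018 bp from an RNA Pol peak of 1.01, and CR46002, 1031 bp from a Myc peak of 1.96.

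How a lncRNA gene lies to its coding neighbour was broken down further. Of 88 lncRNA genes on the opposite strand with exon on exon, 16 (18.2%) were near a Psi peak, 18 (20.5%) near RNA Pol and 16 (18.2%) near Myc. Of 142 on the same strand with no shared exon, 12 (8.45%) were near Psi and 6 (4.23%) near each of the others. These classes differ in both strand and exon sharing. With exon on exon on the same strand, the shares of 55 genes were 14.5%, 20% and 25.5% for Psi, RNA Pol and Myc. On the opposite strand with no shared exon, those of 267 genes were 13.5%, 12.7% and 11.2%. All features were at 6.78%, 10.9% and 14.6%. Of 175 arranged head to head with a neighbour, 19 (10.9%), 22 (12.6%) and 25 (14.3%) were near Psi, RNA Pol and Myc. TaDa does not read strand, so these classes sort genes and not signals.

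By chromosome arm, the highest Psi share was on 3L, where 67 of 445 lncRNA genes (15.1%) were near a Psi peak against 7.1% of all features there. The X followed with 34 of 240 (14.2%, against 7.41% of all features on the X). It had the highest RNA Pol and Myc shares of lncRNA genes, at 14.6% against 11.9% of its features and 16.7% against 17.7%, so the Myc share was below that of the arm. Chromosome arm 2L held most lncRNA genes, 524, with shares of 7.06%, 6.3% and 6.3% in the Psi, RNA Pol and Myc lists, against 5.83%, 9.42% and 12.8% of all its features. On chromosome 4, of 14 lncRNA genes, 1 was near a Psi peak, 1 near an RNA Pol peak and 0 near a Myc peak.

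In all, 346 lncRNA genes (17.8%) were near a peak of some list, against 20.8% of all features and 25.7% of protein-coding genes, and 1598 were near none. There were 74 (3.81%) near peaks of all 3 lists, beside 3.69% of protein-coding genes and 2.82% of all features. A further 56 were near Psi only (2.88%, against 1.61% of all features). Near RNA Pol only were 46 (2.37%, against 3.47%) and near Myc only 60 (3.09%, against 6.96%). The pair Psi and RNA Pol had 35 (1.8%, against 1.06%), and Psi and Myc 43 (2.21%, against 1.29%). The pair RNA Pol and Myc had 32 (1.65%, against 3.56%). Among genes that stand alone the pair RNA Pol and Myc was rare, with 3 genes (0.343%). There, Psi and RNA Pol had 14 (1.6%) and Psi and Myc 18 (2.06%). Among protein-coding genes, 666 (4.78%) were near RNA Pol and Myc without Psi, against 172 (1.23%) and 222 (1.59%) for the other pairs. The Psi and RNA Pol lists share a Dam-only sample, and neighbouring genes share peaks: the 346 genes fall into 291 groups joined by a common peak, of which 44 hold more than 1 lncRNA gene.

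**Figure D3:**
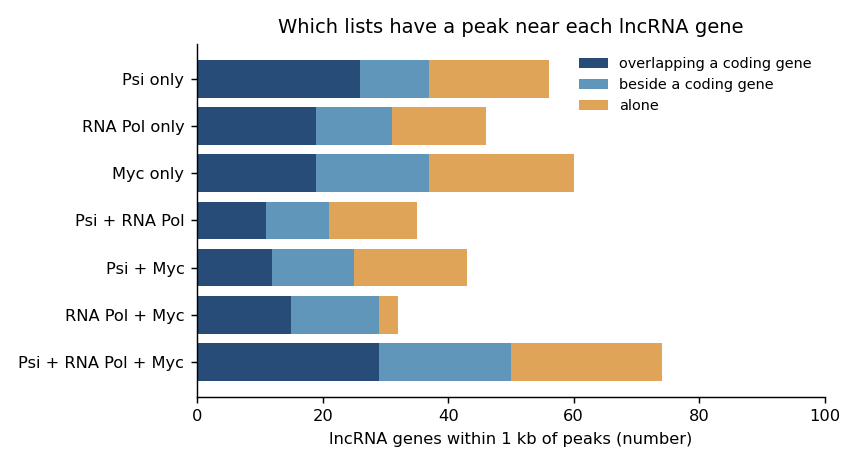
Number of lncRNA genes (x axis) for each combination of lists with a peak within 1 kb (y axis), with bars split by position against protein-coding genes. The bar for all 3 lists is the longest at 74 genes, of which 24 stand alone, and the bar for RNA Pol with Myc holds 3 that stand alone.

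Counted from the peaks, 253 Psi peaks (14.8% of the list), 200 RNA Pol peaks (12.8%) and 210 Myc peaks (10.8%) were near a lncRNA gene. Of these, 93 Psi (36.8%), 55 RNA Pol (27.5%) and 70 Myc peaks (33.3%) had no protein-coding gene within 1 kb. They made up 26.8%, 26.8% and 29.7% of the 347 Psi, 205 RNA Pol and 236 Myc peaks that lie this far from protein-coding genes. Bases over 1 kb from any protein-coding gene amount to 35.2 Mb, of which lncRNA genes that stand alone occupy 1.37 Mb. Psi peaks covered 3.68% of these lncRNA bases and 1.98% of the remaining bases, RNA Pol peaks 2.97% and 1.27%, and Myc peaks 2.39% and 1.19%. Coverage by peaks was thus higher on the lncRNA genes than on the rest of the far bases in each list.

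The scores of peaks near lncRNA genes lay close to those of their whole list. The median score was 1.9 against 1.84 for Psi, 1.25 against 1.24 for RNA Pol and 3.09 against 2.97 for Myc. Psi peaks near overlapping lncRNA genes had a higher median, 1.98, and 50 of these 122 peaks (41%) were in the top 25% of the list by score. Very long genes hold many of the 122, with 16 at CR32773 (224 kb), 11 at CR44833 (107 kb) and 7 at CR44357 (239 kb). Their part in this median was not tested. Psi peaks near genes that stand alone had a median of 1.865, with 21 of 82 (25.6%) in the top 25%. The corresponding Myc peaks had a median of 2.95, with 16 of 65 (24.6%) in the top 25%.

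**Figure D4:**
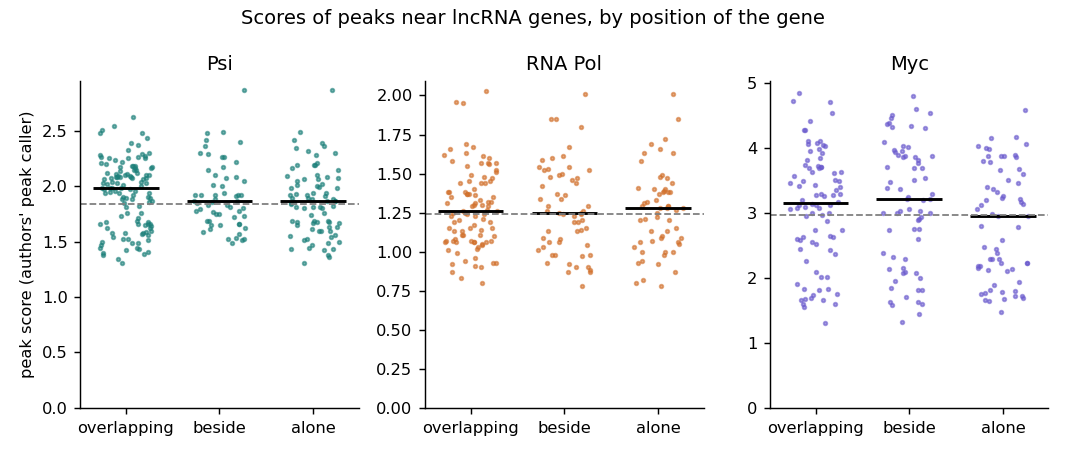
Score given to each peak by the authors' peak caller (y axis, not comparable between panels) for peaks near lncRNA genes, by position of the gene against protein-coding genes (x axis). Points are peaks, black bars are medians and the dashed line is the median of the whole list, and the Psi median at overlapping genes is 1.98 against 1.84 for the list.

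The annotated start site lay inside a peak for 96 of the 208 lncRNA genes near Psi (46.2%), 92 of 187 near RNA Pol (49.2%) and 94 of 209 near Myc (45%). In 27, 33 and 42 of these cases a peak of that list near the gene, the same or another, held the start of a protein-coding gene. Among genes that stand alone, the start site was in a peak for 34 of 75 near Psi (45.3%), 22 of 56 near RNA Pol (39.3%) and 22 of 68 near Myc (32.4%). Beside a coding gene the RNA Pol share was 35 of 57 (61.4%). The other lncRNA genes near a peak had it inside the gene or past an end, and not over the start.

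Hosts of microRNAs numbered 34 among the lncRNA genes, with a median length of 6116.5 bp. Near a Psi peak were 9 (26.5%, against 6.78% of all features), near RNA Pol 10 (29.4%, against 10.9%), near Myc 9 (26.5%, against 14.6%) and near some list 13 (38.2%, against 20.8%). They are long beside other lncRNA genes, and at 5 kb and over the shares of all lncRNA genes were 23.3%, 27.9% and 30.2%. Of the 3 hosts of snoRNAs, CR42491 was near a Psi peak of score 1.66 and a Myc peak of 3.29. The bantam host CR43334 (chr3L:628435-643900) stands alone. It had 4 Psi peaks, with a top score of 2.32, 2 RNA Pol peaks, with a top score of 1.4, and 1 Myc peak of score 2.58. Its strongest Psi peak, chr3L:638773-644267, covers the 3′ part of the gene and holds the mature bantam sequence, which lay 282 bp past the RNA Pol peak and 357 bp past the Myc peak. The start site of CR43334 was in no peak. Another 4 lncRNA genes that stand alone crowd the same region. CR44513 was covered by a Psi peak of 2.16 and an RNA Pol peak of 1.63, and CR42719, CR43337 and CR43423 were near all 3 lists.

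The *mir-9a* host CR45916 (chr3L:19562636-19566533) lies beside *Shal*, a potassium channel gene. A Psi peak of score 2.87, rank 9 of the 1710, covered the whole of it. It had 3 RNA Pol peaks, with scores of 2.01, 1.46 and 1.5, and the mature sequence lay in the peak of 1.46. A Myc peak of 3.2 ended 40 bp before the gene. Upstream lie the lncRNA genes CR44676, which stands alone 5661 bp from *Shal*, and CR44677. CR44676 was near the same Psi peak of 2.87 and overlapped one of 2.49, which covered all of CR44677. Both shared an RNA Pol peak of 1.85, and Myc peaks of 4.03 and 4.02 overlapped CR44676 and CR44677 respectively.

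The host of *mir-279* and *mir-996*, CR31044 (chr3R:29214562-29219667), had its start site in a peak of each list, with scores of 2.07 for Psi, 1.26 for RNA Pol and 4.51 for Myc, rank 87 of the 1951. The mature *mir-279* lay inside all 3 peaks, and *mir-996*, further along, lay 308 bp past the Psi, 1484 bp past the RNA Pol and 1233 bp past the Myc peak. This is the promoter with the TATAAA shown above. The host CR43650 of *mir-8*, which tunes Wg and insulin signalling, likewise had its start in a peak of each list, with scores of 1.76 (Psi), 1.29 (RNA Pol) and 3.88 (Myc). Each of these peaks at CR43650 also overlaps a protein-coding gene.

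CR43314, the host of *mir-bft*, a microRNA that protects bristle cells, was covered over 56.5% of its 18895 bp by 5 Psi peaks. Its RNA Pol peaks numbered 4, with scores from 0.87 to 1.07, and its 2 Myc peaks scored 3.52 and 3.13. A Psi peak of 1.55 and the Myc peak of 3.13 held its start site, which no RNA Pol peak did. CR43626, the host of *mir-282*, had a Psi peak of 1.92 and an RNA Pol peak of 1.8 that both hold the mature sequence. A stronger Psi peak, of 2.42, lay 787 bp before the gene and holds the start of CG43389, and no Myc peak was within 1 kb. CR43857, the host of *mir-275*, had a Myc peak of 4.55 over the whole gene, an RNA Pol peak of 1.08 and no Psi peak. This Myc peak also holds the start of the protein-coding gene *muc*. The *let7C* gene, which makes the heterochronic microRNAs let-7, miR-100 and miR-125, had a Psi peak of 1.56 inside the gene and a Myc peak of 2.65 at 661 bp before it, where the start of *bsf* lies.

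Hosts near RNA Pol without Psi also included CR46006 of *mir-276a*, at 1.21, and CR42651 of the Hox cluster microRNA *mir-10*, at 1.38 with a Myc peak of 1.69. CR45917, the host of *mir-92b*, had a Psi peak of 1.98 and an RNA Pol peak of 0.99. CR45918, the host of *mir-987*, was near a Myc peak of 3.85 and no peak of the other lists.

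Among lncRNA genes with a name rather than a CR number, 37 in all, 5 were near Psi (13.5%, against 6.78% of all features), 5 near RNA Pol (13.5%, against 10.9%), 7 near Myc (18.9%, against 14.6%) and 11 near some list (29.7%, against 20.8%). The *roX* RNAs coat the male X chromosome in dosage compensation, and the larvae here were female. *roX1* had no peak within 1 kb, its nearest being an RNA Pol peak at 4.171 kb. *roX2* was overlapped over 16.2% of its length, at the 3′ end, by an RNA Pol peak of 1.47 and a Myc peak of 3.71, both chrX:11580212-11581139, which also hold the start of *nod*. The start of *roX2* was in neither. The nearest Psi peak was 31.8 kb away.

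*flam*, a piRNA cluster that silences transposons in ovarian follicle cells, spans 158841 bp and had its start site in an RNA Pol peak of score 1.29 (chrX:21631421-21635511). This peak covered 2.28% of the gene, and the nearest Psi and Myc peaks were 252 and 111 kb away. *Hsromega*, which makes the nuclear RNA of the omega speckles, had 3 Psi peaks, with scores of 2.08, 1.79 and 1.62, and no RNA Pol or Myc peak. Its start site was in none of them. *acal*, a regulator of JNK signalling, was near a Psi peak of 2.07, an RNA Pol peak of 1.29 and a Myc peak of 3.15, and each of these holds a start of *lola*, 1634 bp from *acal*.

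Psi lay 13 bp from *marge* in a peak of 2.48, rank 37, and Myc peaks of 3.38 and 2.89 lay near it, of which the second held its start site. The start of *enrr* was in an RNA Pol peak of 1.38 and a Myc peak of 2.96 with the start of *elav*, the neuronal RNA-binding protein gene. *CRG* and *lncRNA:osk* each had a Myc peak of 1.6. Of 14 TS genes, *TS14* was near a Psi peak of 1.63 and *TS2* near an RNA Pol peak of 0.98. No peak of any list lay within 1 kb of *bxd*, *iab4* and *iab8* of the bithorax complex, of *cherub*, *noe*, *sphinx* or *yar*. The nearest Psi peak to *bxd* was 278 kb away.

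The 24 lncRNA genes that stand alone and were near all 3 lists were 2.74% of the 875, beside 2.82% of all features. They had a median distance of 4.516 kb to the nearest protein-coding gene. On 3L, which holds 445 of the 1944 lncRNA genes, lie 15 of them, and several of these share peaks with one another. The start site was in peaks of all 3 lists for 6 of the 24, CR43650, CR44421, CR45248, CR45998, CR43250 and CR46113, and in none for 10. The peaks at the start of CR43650 also overlap a protein-coding gene. CR45248 is 12643 bp from the nearest protein-coding gene, and its start site lay in peaks of 1.82 (Psi), 1.69 (RNA Pol) and 2.45 (Myc). CR45998 lies 1898 bp from *Notum*, which encodes a secreted inhibitor of Wnt ligands, and with CR43950 and CR43949 it forms a cluster there. Its Psi peak had a score of 1.92, and its stronger RNA Pol and Myc peaks 1.28 and 3.88. CR43250 lies 1039 bp from *Ilp8*, the relaxin-like signal that delays metamorphosis when discs grow abnormally, with scores of 1.69, 0.8 and 3.47. A Psi peak and a Myc peak near CR43250 also reach *Ilp8*. CR45734 and CR43929 lie 4818 and 4142 bp from *fng*, the glycosyltransferase that modifies Notch, and share peaks of 1.94 (Psi), 0.94 (RNA Pol) and 2.18 (Myc).

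**Figure D5:**
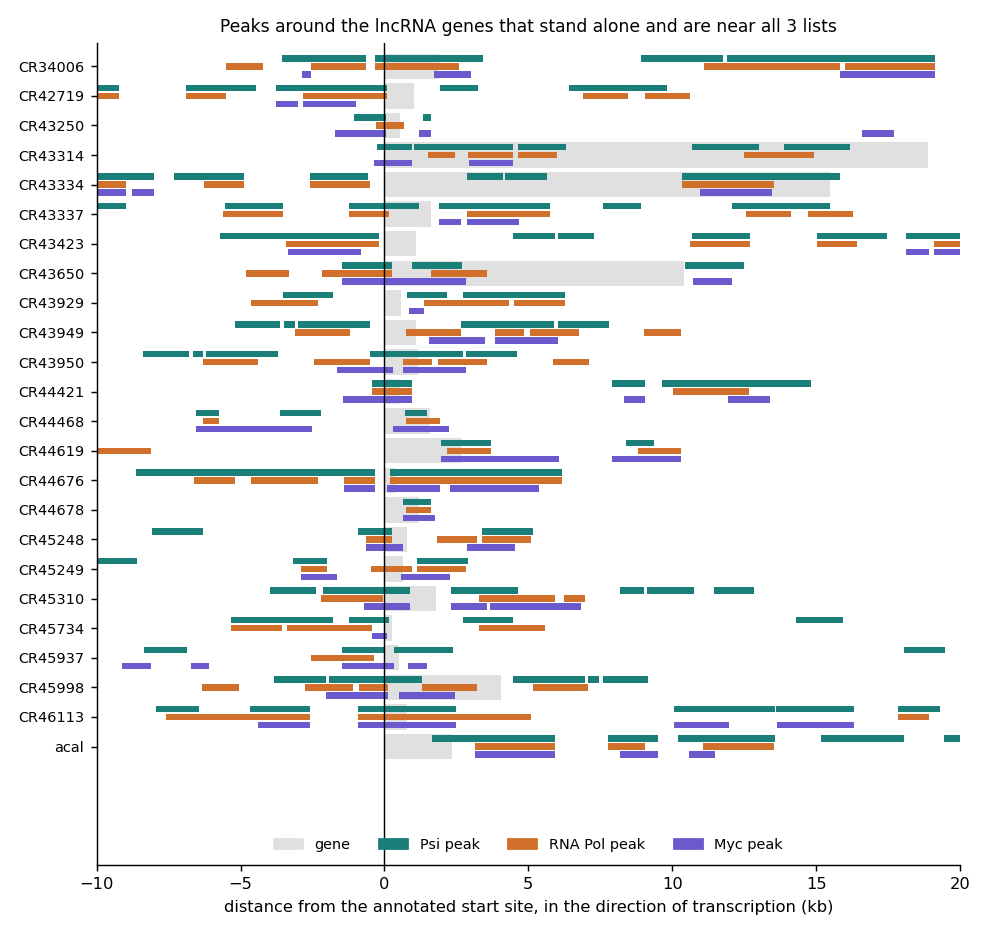
Peaks of the 3 lists around the 24 lncRNA genes that stand alone and are near all 3 lists, by distance from the annotated start site in the direction of transcription (x axis, kb, drawn from 10 kb before to 20 kb after), with the gene in grey. In 6 of the rows the line at 0 crosses peaks of all 3 lists, and in 10 rows it crosses none.

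Other members that stand alone ranked high in 1 list. CR44562 was near a Psi peak of 2.42 and CR43451 near one of 2.39, each holding the start site, with no peak of the other lists. CR46237, 1496 bp from the wing selector gene *vg*, lay within a Psi peak of 2.36 and 878 bp from an RNA Pol peak of 1.32. Both of these peaks also overlap *vg*. A Myc peak of 4.17 further from *vg* overlapped CR44461 and lay within 1 kb of CR46336 and CR46337. CR45234 had a Myc peak of 4.59 at 553 bp, the highest Myc score of this class, and a Psi peak of 2.02 over its start site. CR44619 and CR44468 had Psi peaks of 2.19 and 2.34, RNA Pol peaks of 1.66 and 1.09 and Myc peaks of 4 and 4.16. The Myc peak near CR44619 also overlaps a protein-coding gene.

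Several lncRNA genes that overlap a protein-coding gene ranked near the top of a list. CR43717, inside *ex* of the Hippo pathway, lay within peaks of 2.48 (Psi), 1.61 (RNA Pol) and 3.52 (Myc). CR44974, opposite *CycE*, the cyclin of S phase entry, had the highest RNA Pol score of the lncRNA genes, 2.03, rank 21 of the 1568, with 1.92 for Psi and 3.43 for Myc. CR45473 in *tyn* had the highest Psi score of the overlapping genes, 2.62. The highest Myc score, 4.86, was 690 bp from CR45973 in a peak that holds the start of *trbl*, which slows the cell cycle at the G2 to M step. A Myc peak of 4.73 lay 450 bp from CR46268 and holds the starts of *RpL5*, a ribosomal protein gene, and CG17490. CR46102 lay within peaks of all 3 lists at *LpR2*, a lipophorin receptor gene, with scores of 1.86, 1.69 and 4.54.

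Very long members gathered many peaks. CR32773, of 223710 bp over the Dpp target *bi*, was near 16 Psi, 7 RNA Pol and 1 Myc peak. CR44833, of 107223 bp, had 11, 5 and 4, among them peaks over a start of *ovo*, a transcription factor gene of the epidermis and germline. Of the lncRNA genes near Psi, 169 had 1 peak and 39 had more. Among the genes beside a protein-coding gene, CR44536 had a Myc peak of 4.8 over its start, and CR46098 next to *danr* one of 4.47. CR43644, head to head with the Notch target *E(spl)m3-HLH*, lay within peaks of 1.66 (Psi), 1.52 (RNA Pol) and 4.61 (Myc), and the Psi and Myc peaks hold the start of both genes.

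Motifs were counted on both strands of the promoters, as letters and not as sites. The E-box CACGTG was in 3.03% of lncRNA promoters and in 3.71% of those of all features. It was in 12 of 209 (5.74%) near a Myc peak and in 6 of 94 (6.38%) with the start site in one, beside 6.43% of protein-coding genes near Myc. TATCGATA, which holds the DRE core of housekeeping promoters, was in 1.23% of lncRNA promoters, against 6.51% of all and 9.36% of protein-coding ones. GAGAG was in 30.1% of lncRNA promoters and 29.1% of all. It was in 39.2% of the 74 near all 3 lists. With the start site in a peak, it was in 38.5% for Psi, 44.6% of the 92 for RNA Pol and 42.6% for Myc. Near Psi, RNA Pol and Myc it was in 34.6%, 36.4% and 34% of lncRNA promoters. The same shares of protein-coding promoters were 45.7%, 34.6% and 32.8%. TATAAA was in 37.7% against 44.8% of all. Where a peak held the start site, it was in 27.1% for Psi, 27.2% for RNA Pol and 34% for Myc. GATC, which sets where Dam can mark, was in 43.3% of lncRNA promoters, against 48.2% of all. It was in 54.3% of those near Psi, 49.7% near RNA Pol and 53.6% near Myc. With the start site in a peak, the shares were 58.3% for Psi, 38% for RNA Pol and 56.4% for Myc. The part of GATC content in these shares was not tested.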

How the data were processed

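TaDa was carried out on wing imaginal discs in 16 samples: 3 each with Psi-Dam, RNA Pol-Dam and Myc-Dam and 7 with Dam alone. A description label that reads as RNAi or control conflicts with the titles and was not used. The authors aligned reads to BDGP6 with Bowtie2 in damidseq_pipeline, computed normalised log2 ratios to Dam alone, averaged 3 replicates and used find_peaks to call peaks (FDR of 1%). The versions of these tools were not given in the sources used here. In the deposited lists each peak has a score and an FDR computed by the authors. How the score is formed is not stated, and depth is unknown. Other files were not used here.

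Gene models were from Ensembl release 115 (BDGP6 version 54) and sequences from RefSeq for the same build. Distances, overlaps and motifs were computed in Python 3.11.15 with numpy 2.4.6 and pandas 2.3.3, figures with matplotlib 3.10.9, and the interval code was tested on simulated data. The 3 members off the arms of the lists were left out. No test was run, since the lists have no replicates. The members and lists were chosen with earlier results of these data known.

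The genes named by rule are lncRNA genes with a known role, the 5 highest scores per list and position, and other named genes near a peak. The rule also took genes that stand alone near all 3 lists (at most 15 by rank) and those with most peaks. Of the genes to be named for a known role, *bft*, *msa*, *IBIN*, *PAN* and CR44811 had no symbol beginning with lncRNA and were left out. The paper names CR44811 among its long non-coding Psi targets. The microRNA hosts CR42651, CR45917, CR45918 and CR46006, and CR42491, CR43250, CR43949, CR43929, CR44421, CR45734, CR46113 and the genes just inside and outside 1 kb were chosen after their values were seen. Alternatives were overlap, a distance of 2 kb, an FDR of 0.1%, wider limits for standing alone and overlap among the peaks. For genes that stand alone, another counted only peaks over 1 kb from any protein-coding gene.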

Additional observations from a re-analysis of the deposited data

How the results depend on the processing

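Of 41 alternatives over 10 counts, 33 stayed within 1.5 times the value reported and 8 moved further. Requiring a peak to overlap the gene left 33 lncRNA genes that stand alone near RNA Pol and 44 near Myc, and 47 near all 3 lists. Setting standing alone at over 5 kb from a protein-coding gene left 42 near Psi, 27 near RNA Pol and 36 near Myc. At an FDR of 0.1%, 44 were near all 3 lists and 44 Myc peaks were near a lncRNA gene and no protein-coding gene. The share of lncRNA genes near Psi stayed above that of all features with overlap (7.61% against 4.96%). It did so too with a distance of 2 kb (13% against 8.2%) and at an FDR of 0.1% (8.85% against 5.11%). For RNA Pol the share was below in the same order, at 7% against 8.36%, 11.9% against 13.2% and 7.05% against 7.35%. The last pair was nearly equal. For Myc it was below at 7.82% against 10.8%, 13.8% against 17.9% and 7.92% against 9.84%. Where the 3 peaks also had to overlap one another, 66 of the 74 genes near all 3 lists were left, and 56 with an overlap of at least 50% of the shorter.

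No paired analysis was possible because each list was called by the authors on an average of its 3 samples. Widths of GATC fragments limit position, and a peak near several genes cannot be given to 1 of them. Neither the score nor the FDR gives a spread between discs.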
